A study of Mus musculus with 4 samples.

Results

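The cytosolic ribosomal protein genes were examined in mouse TH9 cells that did or did not carry Batf3. They were chosen by symbol: Rpl or Rps followed by a digit, with Rplp0, Rplp1, Rplp2 and Rpsa, and without the 17 rows whose symbol holds "-ps" and the 10 S6 kinase rows. This gave 86 of the 25509 genes in the table. They comprised 77 genes with 1 entry for each ribosomal protein, 31 of the small subunit and 46 of the large, and 7 diverged paralogs. The other 2 were the retrogene Rps27rt and Rps19bp1, which encodes a protein that binds Rps19 and is not itself part of the ribosome. Fau and Gnb2l1 (Rack1) also encode ribosomal proteins, but their symbols fall outside the rule and they are given apart.

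RNA was sequenced from splenic CD4+ T cells sorted as naive (CD25-, CD62L high, CD44 low) and then cultured for 72 h with antibodies against CD3 and CD28, TGFb, IL-4 and TL1A, a TNF-family cytokine that the treatment label spells TLA1. All libraries shared this treatment, and they differed in genotype: 2 were wild type (WT 1 and WT 2) and 2 were Batf3-/- (Batf3-/- 1 and Batf3-/- 2), from cells without Batf3, which encodes a bZIP factor related to AP-1. The sample titles give WT and Batf3-/- of each replicate number a shared code, which differs between the numbers. The labels do not say what the code stands for or whether it marks separate mice or cultures. The p-values here measure only the spread among these samples, which may be partly technical. Libraries held 15624874 to 31098059 counts, 3 counts corresponded to 0.0944 to 0.194 CPM (counts scaled to a common library total), and values are CPM after TMM scaling unless stated. Batf3 itself was at 61.7 and 60.5 CPM in WT and at 0.535 and 0.517 CPM in Batf3-/- (edgeR adjusted p = 3.80e-11). The 9 T cell markers summed to 2966 to 3109 CPM in each library, against 3.25 to 13.2 CPM for the B cell, myeloid and dendritic cell lists, 7.31 to 9.09 CPM for the CD8 list 0 for the NK cell list and 0 to 0.142 CPM for the erythroid list. Replicates of 1 number shared their Xist level, which was 0.214 and 0.094 CPM in WT 1 and Batf3-/- 1 and 166 and 144 CPM in WT 2 and Batf3-/- 2, and values within each number therefore accompany the pooled differences.

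Each ribosome joins a small subunit, which holds the mRNA and reads its codons, with a large subunit, which forms peptide bonds and releases the chain through a tunnel. Vertebrate ribosomal protein mRNAs carry a pyrimidine tract at their 5′ end, the TOP motif, through which LARP1 and the mTOR pathway control their translation. Activated T cells make many ribosomes as they grow and divide. Ribosomal protein genes have also left many processed copies in the genome, and some of these are nearly identical to the parent mRNA.

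Start-site sequences were matched in the RefSeq promoter table (GRCm38.p6) for 66 of the 86 genes. Windows of 20 bases on each side of the annotated start are shown for Rpl28 and Rpl18, which had high Batf3-/- values, for Rps15a, which had a low one, and for Rps6, the target of the S6 kinases. Capitals mark a tract of C and T that begins with C within 2 bases of the start.
Rpl28, chr7:4792945-4792984, plus strand: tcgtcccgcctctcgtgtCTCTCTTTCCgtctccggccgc
Rpl18, chr7:45718051-45718090, plus strand: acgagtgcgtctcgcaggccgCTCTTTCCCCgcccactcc
Rps15a, chr7:118116128-118116167, minus strand: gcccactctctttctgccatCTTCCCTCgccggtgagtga
Rps6, chr4:86857348-86857387, minus strand: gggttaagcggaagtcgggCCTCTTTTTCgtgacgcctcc
Such a tract, a C followed by at least 4 bases that are each C or T, stood at the start of 22 of the 66 matched genes (33.3%) and of 10.6% of all 27025 genes in the promoter table. All 4 windows shown hold such a tract, so it was present both in genes with higher and in genes with lower values in Batf3-/- cells. By this rule it was absent from the start of Rpl27, which had a high Batf3-/- value, and of Rps12, which had a low one. Tracts that begin farther from the annotated start, such as that downstream in the Rps12 window, were not counted. A gene without a match can therefore still carry a tract. In the 300-base windows, searched on both strands, the ETS-type core CCGGAAG occurred in 39.4% of the matched genes and 9.93% of all genes, and AAGATGG, the core bound by YY1, in 15.2% and 7.28%. The AP-1 motif TGANTCA occurred in 2 of the 66 genes (3.03%), against 8.97% of all genes, and TGACGTCA, the cyclic AMP response element, in 5 (7.58%), against 2.03%.

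The ribosomal protein genes took 13.3% and 10.96% of all counts in WT 1 and WT 2 and 12.3% and 12.6% in Batf3-/- 1 and Batf3-/- 2. Both Batf3-/- values lay between the WT values. The means were 12.1% ± 1.7 (SD, n = 2) in WT and 12.4% ± 0.22 (SD, n = 2) in Batf3-/-, and the difference of 0.295 percentage points did not exceed the spread between the WT replicates (exact permutation test, two-sided, p = 1.0, with 0.333 the smallest p that 2 against 2 libraries allow). Within replicate number 1 the share fell by 1.05 points and within number 2 it was 1.64 points higher, so the 2 pairs went opposite ways. Without WT 2 the difference was -0.897 points, and without the 38 genes that hold fractional counts it was -0.0374 points. In bulk RNA, fewer cells of a type and less RNA per cell cannot be told apart.

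Mitochondrially encoded genes took 1.92% and 1.65% of counts in WT and 1.53% and 1.31% in Batf3-/-. With these genes taken out of the total, the share of the ribosomal protein genes was 12.4% in WT and 12.6% in Batf3-/-, a difference of 0.251 points (exact permutation test, two-sided, p = 1.0). Small subunit genes held 5.59% and 4.42% in WT against 4.93% and 4.98% in Batf3-/-, and large subunit genes 7.56% and 6.40% against 7.21% and 7.44%. The ratio of small to large subunit counts was 0.739 and 0.690 in WT and 0.684 and 0.670 in Batf3-/-. Both Batf3-/- ratios were thus below both WT ratios, with 0.714 ± 0.035 (SD, n = 2) against 0.677 ± 0.010 (SD, n = 2), and the exact permutation test reached its smallest possible two-sided p of 0.333. The order did not hold without the genes of fractional counts, where the ratio was 1.05 and 1.01 in WT and 1.04 and 1.02 in Batf3-/-. With the counts of near-identical copies added, the ratio of WT 2 and that of Batf3-/- 1 were both 0.675.

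**Figure D1:**
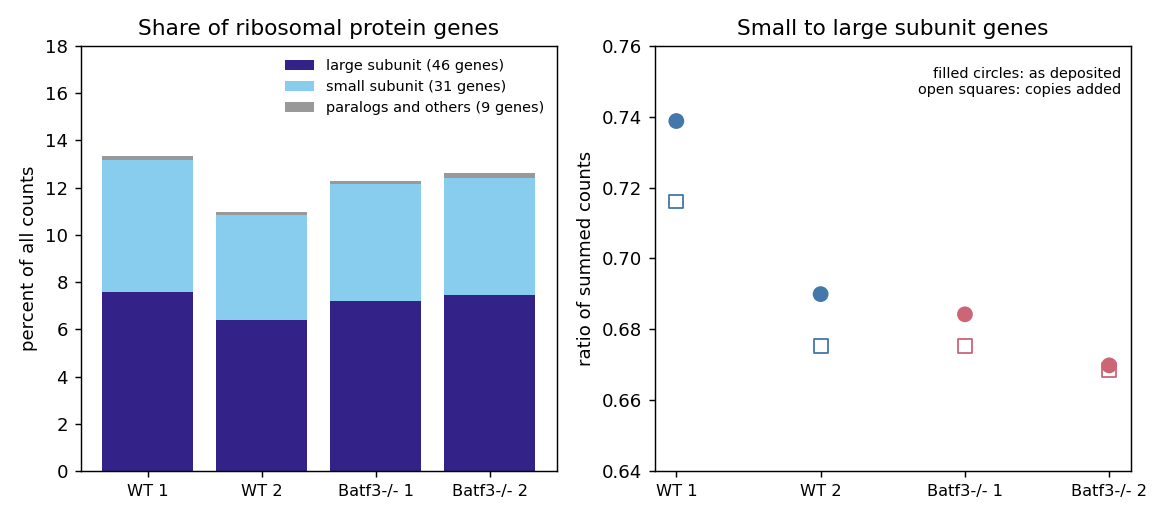
Left, percent of all counts in ribosomal protein genes per library, stacked by subunit; right, ratio of summed small to large subunit counts per library on an axis that does not start at 0, as deposited (filled circles) and with copies added (open squares). The Batf3-/- shares of 12.3% and 12.6% lie between the WT shares of 10.96% and 13.3%.

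No ribosomal protein gene passed the adjusted threshold of 0.05 in edgeR's quasi-likelihood test. Of the 86 genes, 84 passed the filter on low counts, and Rpl3l and Rpl10l had 0 counts in all 4 libraries, which allows up to 0.194 CPM in the shallowest. The count was 0 of 84, against 16 of 12135 genes over the whole table (0.132%, 10 higher and 6 lower). At an unadjusted p under 0.05 there were 3, Rpl23a, Rpl28 and Rps29, all with higher Batf3-/- values, against 4.8% of all genes tested. DESeq2 called 1 of the 84, Rpl23a (adjusted p = 0.025), beside 0.239% of all genes, and limma-voom called 0. With the replicate number as a block, edgeR called 2 of the 84, Rpl23a (adjusted p = 0.000183) and Rpl28 (adjusted p = 0.0173), both higher, beside 0.923% of all genes. With the GC correction and the block it called 1, Rpl23a (adjusted p = 0.00268), beside 0.338%. In the blocked fit the spread of most genes was taken wholly from the trend over genes.

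The median log2 fold change (Batf3-/- minus WT) was 0.03 over the 84 genes, 45 of them above 0, and -0.01 over all genes tested. Small subunit genes had a median of -0.04, with 12 of 31 above 0, and large subunit genes 0.06, with 30 of 46 above 0. Values of both Batf3-/- libraries lay above both WT values for 19 genes (22.6% of 84, against 18.2% of all genes) and below both for 2, Rps26 and Rps19bp1 (2.38%, against 15.6%). Among genes with a mean of at least 200 CPM, the log2 fold changes of 79 ribosomal protein genes and of 819 other genes had nearly the same SD, 0.22 and 0.23.

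Over these genes the 2 WT libraries lay farthest apart. Relative to each gene's mean log2 CPM over the 4 libraries, the median deviation was 0.15 in WT 1 and -0.17 in WT 2, and -0.01 and 0.05 in Batf3-/- 1 and Batf3-/- 2. WT 1 was above the gene's mean for 63 of 84 genes and WT 2 for 4. Within replicate number 1 the median log2 ratio was -0.17, with 21 of 84 genes above 0. Within number 2 it was 0.22, with 77 above 0, and over all genes tested the medians were -0.01 and 0.01. Within both numbers 20 of the 84 genes were higher (23.8%, against 27.2% of all genes) and 6 lower (7.14%, against 27.9%). Without WT 1 the median log2 fold change was 0.18, and edgeR called Rpl23a alone among the 84 (0.495% of all genes). Without WT 2 the median was -0.11, and edgeR called 9 of 84 (4.46% of all genes). Of these, Rpl23a and Rpl28 were higher, and Rps12, Rps15a, Rps24, Rps27a, Rpl22, Rps27l and Rpl22l1 were lower. The medians of small and large subunit genes were both 0.18 without WT 1, and -0.20 and -0.05 without WT 2. The lone WT library is assumed in these fits to vary like the Batf3-/- libraries.

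**Figure D2:**
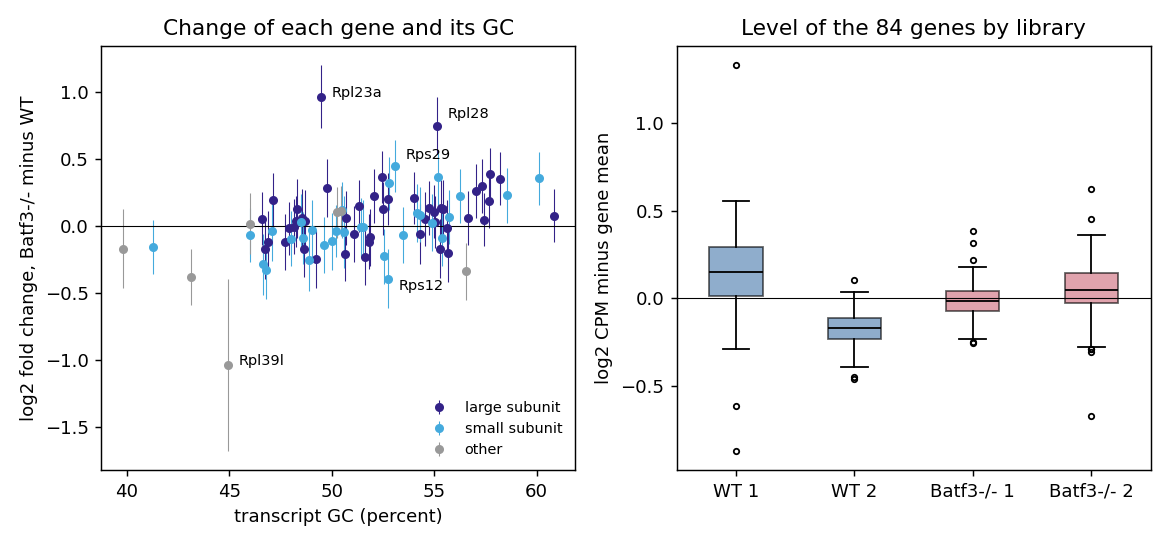
Left, log2 fold change of the 84 tested genes (Batf3-/- minus WT; points, with bars of 1 standard error) against transcript GC in percent; right, log2 CPM of the same genes minus each gene's mean over the 4 libraries, as boxes of median and quartiles with whiskers to 1.5 interquartile ranges. Genes of higher GC tend to have higher fold changes, and WT 1 (median 0.15) and WT 2 (median -0.17) lie farthest apart.

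The P stalk is the flexible arm of the large subunit that recruits and activates the translation GTPases. Its base, Rplp0, had the highest level per kilobase of transcript of all 86 genes (mean 5900 CPM per kilobase over the 4 libraries). Rplp0 was at 5433 and 4705 CPM in WT and 5001 and 5015 CPM in Batf3-/-, with the Batf3-/- values between the WT values (log2 fold change -0.02 ± 0.21 SE). Rplp1, a stalk protein that binds Rplp0 as a dimer with Rplp2, was at 1340 and 1345 CPM in WT and 1515 and 1783 CPM in Batf3-/-, without overlap (0.30 ± 0.20, edgeR adjusted p = 0.958). Rplp2 was at 1097 and 968 CPM against 1055 and 1164 CPM, and the groups overlapped. Rpl12, which sits at the foot of the stalk, was at 2590 and 1873 CPM in WT and 1898 and 1904 CPM in Batf3-/-, with WT 1 alone standing high.

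Rpl5 and Rpl11 bind 5S ribosomal RNA, and outside the ribosome that particle can inhibit MDM2, the ligase that degrades p53. Rpl5 was at 5151 and 3563 CPM in WT and 3861 and 3862 CPM in Batf3-/-. Rpl11 was at 1194 and 1007 CPM against 1135 and 1280 CPM, so both genes overlapped between the genotypes. Their log2 fold changes were -0.17 ± 0.22 and 0.13 ± 0.20. Among 11 tested targets of p53 in ribosomal stress, 0 passed the threshold and 5 were above 0. Bax, which promotes apoptosis, was at 49.7 and 55.7 CPM in WT and 69.4 and 62.1 CPM in Batf3-/- (0.32 ± 0.19, edgeR adjusted p = 0.958). Rps27l, also a p53 target, had a smaller unadjusted edgeR p (0.0832, against 0.107 for Bax), with a log2 fold change of -0.38.

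Rpl4, Rpl17 and Rpl39 line the tunnel through which the new chain leaves. Rpl4 was at 4096 and 3972 CPM in WT and 3735 and 4299 CPM in Batf3-/- (log2 fold change -0.01 ± 0.21). Rpl17 was at 2366 and 1427 CPM against 1702 and 1795 CPM. Rpl39, which is X-linked, was at 1186 and 829 CPM against 842 and 1223 CPM. All 3 overlapped between the genotypes.

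Proteins of the mRNA channel and decoding site gave both overlapping and separated values. Rps2, at the entry of the mRNA channel, was at 2594 and 2707 CPM in WT and 2987 and 3187 CPM in Batf3-/- (0.22 ± 0.20). Rps15, whose tail reaches the decoding site, was at 1049 and 962 CPM against 1250 and 1323 CPM (0.36 ± 0.20, edgeR adjusted p = 0.958). The groups were separate for these 2 genes and overlapped for the other 3. Rps3, which also lines the entry, was at 3421 and 2301 CPM in WT and 2706 and 2896 CPM in Batf3-/-. Rps9 was at 1931 and 1562 CPM against 1866 and 1835 CPM, and Rps23, which contacts the decoding centre, was at 1996 and 1639 CPM against 1662 and 1805 CPM.

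Per kilobase, Rplp0 was followed by Rpl13a (4748), Rpl3 (4635), Rps24 (4520), Rps12 (4097) and Rps6 (3776). Rpl13a, which in monocytes can leave the ribosome to silence inflammatory mRNAs, was at 2640 and 1856 CPM in WT and 2332 and 2574 CPM in Batf3-/-. Rpl3, which lies near the peptidyl transferase centre, was at 4473 and 3319 CPM against 3498 and 3838 CPM. Rps24 was at 3214 and 2003 CPM against 2211 and 2064 CPM. Rps6, the S6 kinase substrate, was at 3914 and 2985 CPM against 3059 and 3303 CPM. In all 4 genes the Batf3-/- values lay between the WT values. Lengths are medians over coding transcripts, and Rps20 was ranked on its single annotated coding transcript of 3706 bases. Rpsa, also known as a laminin receptor, was at 5375 and 4449 CPM in WT and 4742 and 4640 CPM in Batf3-/-. Rps19, the gene most often mutated in Diamond-Blackfan anaemia, was at 1102 and 829 CPM against 1120 and 1142 CPM (0.23 ± 0.21). Of the 14 genes listed for that anaemia, 0 passed the threshold, 6 were above 0, and the median log2 fold change was -0.02.

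**Figure D3:**
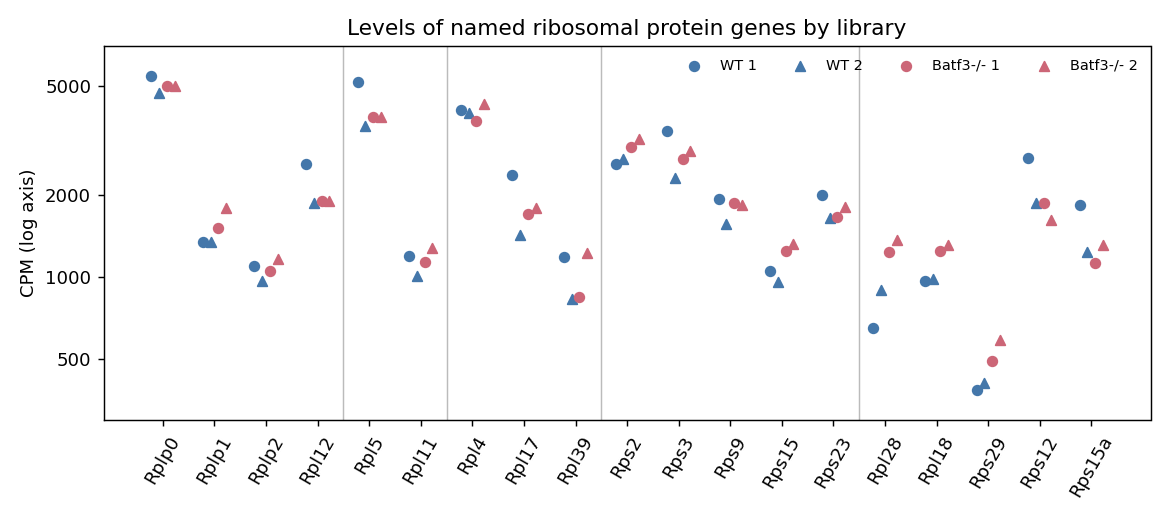
CPM of named genes in each library on a log axis, with WT in blue and Batf3-/- in red, circles for replicate 1 and triangles for replicate 2; grey lines separate the P stalk, 5S ribonucleoprotein, exit tunnel, mRNA channel and decoding site, and genes of high or low fold change. Rpl28, Rpl18 and Rps29 have both Batf3-/- values above both WT values.

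The 5 highest fold changes belonged to Rpl23a, Rpl28, Rps29, Rpl18 and Rpl27. Rpl28 (chromosome 7, 4792874 to 4795066, GRCm38), a large subunit protein, was at 650 and 899 CPM in WT and 1239 and 1365 CPM in Batf3-/-. The groups did not overlap, the log2 ratios were 0.93 and 0.60 within replicate numbers 1 and 2, and the pooled log2 fold change was 0.75 ± 0.21 (edgeR adjusted p = 0.379, or 0.0173 with the replicate block; DESeq2 adjusted p = 0.092). With the GC correction and the block, the log2 fold change was 0.65 ± 0.18 (edgeR adjusted p = 0.177). Rpl28 shared 0 stretches of read length with any other gene of the table. Its counts were nonetheless fractional, at 15164.4 in WT 1 and 39369.79 in Batf3-/- 1, so some of its reads were divided. The span of Rpl28 overlaps Ube2s on the opposite strand, which was at 148 and 173 CPM in WT and 209 and 161 CPM in Batf3-/-. The sources used here do not state whether counting used strand, and reads of such pairs may not be told apart.

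Rps29, a zinc-binding small subunit protein, was at 385 and 411 CPM in WT and 494 and 590 CPM in Batf3-/- (0.45 ± 0.19, edgeR adjusted p = 0.958). Rpl18 was at 966 and 988 CPM against 1247 and 1314 CPM (0.39 ± 0.19, edgeR adjusted p = 0.958). Both genes were separate between the genotypes. The 5 lowest fold changes were those of Rpl39l, Rps12, Rps27l, Rps19bp1 and Rps15a. Rps12, a small subunit protein, was at 2716 and 1864 CPM in WT and 1867 and 1617 CPM in Batf3-/- (-0.39 ± 0.22), and Batf3-/- 1 overlapped WT 2. Rps15a was at 1829 and 1230 CPM against 1130 and 1310 CPM (-0.33 ± 0.22). Rps19bp1 was at 25.7 and 23.3 CPM against 21.1 and 17.5 CPM (-0.34 ± 0.21, edgeR adjusted p = 0.958), without overlap.

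Rpl23a, a large subunit protein at the tunnel exit, had the highest fold change of the 84 genes, and its level moved opposite to that of a processed copy. Rpl23a (chromosome 11, 78180932 to 78183584, GRCm38) was at 574 and 959 CPM in WT and 1372 and 1621 CPM in Batf3-/-. The groups did not overlap, and the log2 fold change was 0.97 ± 0.24 (edgeR adjusted p = 0.224, or 0.000183 with the replicate block). Rpl23a-ps3, a processed pseudogene on chromosome 14 (34170655 to 34171122), was at 1183 and 612 CPM in WT and 412 and 341 CPM in Batf3-/- (-1.25 ± 0.27, edgeR adjusted p = 0.151, or 1.05e-06 with the replicate block). It was named after its values were seen. The summed level of the pair was 1757 and 1572 CPM in WT and 1785 and 1962 CPM in Batf3-/-, with a log2 fold change of 0.17 ± 0.20 (edgeR adjusted p = 0.958). The copy held 67.3% and 39.0% of that sum in WT and 23.1% and 17.4% in Batf3-/-.

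The aligned sequences differ at 1 of the 468 bases of the Rpl23a coding sequence (99.8% identity, GENCODE M21). Bases 86 to 145 of the coding sequence are shown to place that difference, which is in capitals.
Rpl23a: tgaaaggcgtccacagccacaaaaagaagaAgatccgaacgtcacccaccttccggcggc
Rpl23a-ps3: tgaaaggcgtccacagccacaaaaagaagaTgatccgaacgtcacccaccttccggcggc
Reads were 75 bases long, so a read from the coding sequence that does not reach this base fits both genes equally. RSEM divides such reads between genes by an estimate, and the split is therefore less certain than the sum. Whether the change in the split came from transcription of either locus was not tested.

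Near-identical copies touched other members as well. Of the 86 genes, 56 shared 0 stretches of 75 bases with another gene, and 30 shared some. Fractional counts, the trace of divided reads, occurred in 29 of those 30 and in 9 of the 56. A rule chosen after seeing the data linked 20 members to 25 copies that share at least 20% of their own stretches, and 8 of the 20 had at least 5% of their summed level in copies in some library. The share in copies was lower in both Batf3-/- libraries than in both WT libraries for 6 of these 8 and higher for 1, Rps12. Among the 6, Rpl35 was barely separate, at 34.35% in WT 2 and 34.27% in Batf3-/- 1. No matching share over all genes was made, so this count only describes the genes picked by the rule. The 24 copies outside the rule for members took 0.687% and 0.433% of counts in WT and 0.420% and 0.385% in Batf3-/-.

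Rpl9, a large subunit protein, had 34.0% and 24.9% of its sum in Rpl9-ps6 in WT and 17.8% and 14.3% in Batf3-/-. With the replicate block Rpl9-ps6 had a log2 fold change of -0.97 ± 0.19 (edgeR adjusted p = 9.96e-05). With the GC correction and the block it was -0.88 ± 0.20 and did not pass the threshold (edgeR adjusted p = 0.106). The 2 sequences differ at 1 of 576 coding bases, again shown in capitals within bases 236 to 295.
Rpl9: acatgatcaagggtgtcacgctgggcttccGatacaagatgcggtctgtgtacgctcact
Rpl9-ps6: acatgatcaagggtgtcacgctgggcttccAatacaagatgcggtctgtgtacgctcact
Rpl10, the X-linked protein that completes the large subunit, had 72.7% and 73.4% of its sum in Rpl10-ps3 in WT and 68.2% and 59.4% in Batf3-/-. Its 642 coding bases are identical in the copy. Rpl27 had 88.1% and 83.3% of its sum in its copy in WT and 80.2% and 76.0% in Batf3-/-. Rps27rt, a retrogene whose 252 aligned coding bases are identical to those of Rps27, held 98.4% to 99.2% of the pair in all 4 libraries, and Rps27 was at 8.97 to 14.0 CPM. Summing turned the sign of 5 of the 20 log2 fold changes, among them those of Rpl27 (0.36 to -0.30), Rpl10 (0.28 to -0.15) and Rpl9 (0.13 to -0.15). With all copies summed, edgeR called 0 of 83 members, 2 had an unadjusted p under 0.05 (Rpl28 and Rps29), and the median log2 fold change was -0.01, with 41 above 0. With copies summed and the replicate block, a fit added after seeing the data, edgeR called 1 of 83, Rpl28 (adjusted p = 0.0163), beside 0.892% of all genes, and Rpl23a had an adjusted p of 0.882.

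**Figure D4:**
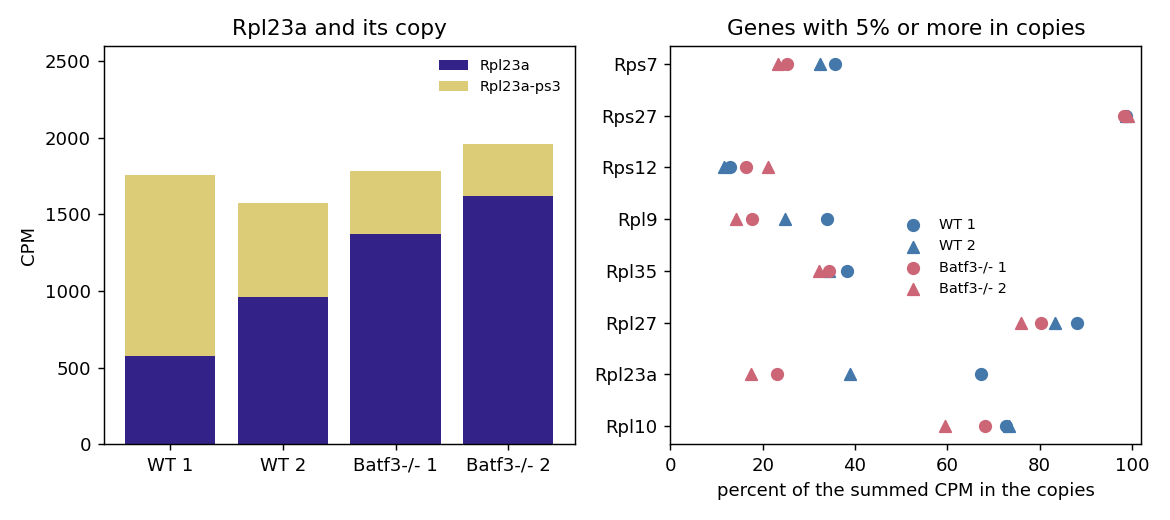
Left, CPM of Rpl23a and Rpl23a-ps3 stacked per library; right, percent of the summed CPM held by the copies for the 8 members with at least 5% there in some library, with WT in blue, Batf3-/- in red, circles for replicate 1 and triangles for replicate 2. The Rpl23a copy held 67.3% and 39.0% in WT and 23.1% and 17.4% in Batf3-/-, while the sum lay between 1572 and 1962 CPM.

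Some of the diverged paralogs can replace their parent protein in certain cells or tissues. Rpl22l1 and Rpl22 are a pair with roles in T cell development. Rpl22l1 was at 315 and 155 CPM in WT and 182 and 236 CPM in Batf3-/-, and Rpl22 at 925 and 593 CPM against 620 and 657 CPM. Rpl22l1 thus held 25.4% and 20.7% of the pair's counts in WT and 22.7% and 26.4% in Batf3-/-, with overlap. Rpl36al held 28.9% and 28.8% of its pair with Rpl36a in WT and 30.9% and 28.4% in Batf3-/-. Rpl7l1 held 3.17% and 4.45% of its pair with Rpl7 against 4.77% and 3.92%. Rps27l, a p53 target, was at 134 and 88.3 CPM in WT and 91.8 and 78.4 CPM in Batf3-/- (-0.38 ± 0.21, edgeR adjusted p = 0.958), with Batf3-/- 1 inside the WT range. Rpl39l, best known from testis, was at 1.67 and 0.474 CPM against 0.566 and 0.388 CPM, and the log2 fold change of -1.04 ± 0.64 was 0.08 without WT 1.

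The 4 X-linked members had fold changes above 0 (median 0.04), although Rpl10 was at -0.15 once its copy was added, and 0 passed the threshold. Rps4x, a small subunit protein, was at 3052 and 2631 CPM in WT and 2601 and 3183 CPM in Batf3-/-. Rpl36a was at 737 and 647 CPM against 670 and 767 CPM. Rpl10, before adding its copy, was at 601 and 424 CPM against 529 and 717 CPM. The groups overlapped in all 4. Rpl7, Rpl31 and Rpl37a lie on chromosome 1 with Batf3, at 118 to 175 Mb from it. Of these Rpl31 was at 837 and 780 CPM in WT and 880 and 914 CPM in Batf3-/-, without overlap (0.15 ± 0.19), and Rpl7 and Rpl37a overlapped.

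Fau and Gnb2l1, outside the symbol rule, did not pass the threshold. Fau was at 1252 and 884 CPM in WT and 1030 and 1093 CPM in Batf3-/-, and Gnb2l1 (Rack1), a signalling scaffold on the small subunit, at 3133 and 2402 CPM against 2644 and 2679 CPM. In the lists of genes that make, control or rescue ribosomes, 0 genes passed the threshold. Assembly factors had 32 of 64 tested genes above 0 and a median of -0.01, and RNA polymerase I genes 7 of 14 and 0.02. Rrp9, part of the U3 snoRNP that processes ribosomal RNA, was at 22.8 and 32.6 CPM in WT and 47.1 and 43.5 CPM in Batf3-/- (0.71 ± 0.21, edgeR adjusted p = 0.523, or 0.0269 with the replicate block). With the GC correction and the block, the log2 fold change of Rrp9 was 0.43 ± 0.17 (edgeR adjusted p = 0.847). Taf1c, of the RNA polymerase I initiation factor, was at 8.27 and 10.9 CPM against 14.9 and 15.1 CPM (0.64 ± 0.24, edgeR adjusted p = 0.840). Both were separate between the genotypes.

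Of 15 other TOP mRNA genes 8 were above 0, of 16 genes in the mTOR, LARP1 and MYC list 11, and of 10 rescue and maturation genes 5, with medians of 0.01, 0.08 and -0.01. Mtor, the kinase itself, was at 59.2 and 91.8 CPM in WT and 67.4 and 91.2 CPM in Batf3-/-. Larp1, which binds TOP mRNAs, was at 261 and 410 CPM against 328 and 392 CPM. Myc, which activates ribosomal genes, was at 194 and 324 CPM against 298 and 272 CPM. All 3 overlapped, and WT 1 was the lowest library in each.

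Fold changes of the ribosomal protein genes moved with base composition. Over the 84 genes, log2 fold change and transcript GC correlated with a Spearman coefficient of 0.47 and a Pearson coefficient of 0.42, and over 12105 genes with a transcript with 0.59 and 0.42. These are descriptions over genes that share the same 4 libraries. The third of the genes with the lowest GC (39.8% to 49.5%) had a median log2 fold change of -0.08 with 9 of 28 above 0, and the third with the highest (54.3% to 60.8%) had 0.09 with 22 of 28 above 0. The trend of level on GC from the 10th to the 90th percentile of GC was -0.44 in WT 1, 0.02 in WT 2, 0.19 in Batf3-/- 1 and 0.24 in Batf3-/- 2 on the log2 scale. With each library's trend removed, the median of the 84 genes was -0.01, edgeR called 0, Rpl28 was at 0.64 and Rpl23a at 1.01.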

How the data were processed

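Polyadenylated RNA was sequenced from 2 WT and 2 Batf3-/- samples as 75-base single-end reads from a kit that keeps strand, as the labels' protocols state. The deposited table holds expected counts per gene, made by the authors with STAR 2.5.0 and RSEM 1.2.25, per the submitters' processing notes. These are estimates that divide shared reads. The 92 spike-in rows were 0 and were left out. Expected counts were rounded, filtered with filterByExpr (minimum count 10, minimum total 15), scaled by TMM and tested over the whole table with edgeR 4.0.16 (quasi-likelihood, robust, legacy=FALSE, R 4.3.3), two-sided, with Benjamini-Hochberg adjustment at 0.05. The standard error is the log2 fold change divided by the root of the F statistic. Log2 CPM used a prior count of 0.5. Alternatives used DESeq2 1.42.0 and limma 3.58.1. Floors of 3 counts cover counting error only.

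Positions, lengths, GC and 75-base stretches came from GENCODE M21 (GRCm38, matched by gene identifier, 25251 of 25509 genes). Coordinates are 1-based. Replicates differed beyond sampling noise (chi-square per degree of freedom 66.0 in WT and 23.7 in Batf3-/-), so all were kept apart. Members and lists were chosen with earlier results of these data known. Named genes were the 5 highest and 5 lowest fold changes, the 6 most abundant per kilobase, the role lists, X-linked and chromosome 1 members, Rps6, Rpsa, Rps19, and the 2 smallest p-values of each other list. The copies and their rule were chosen after seeing the data. The tests were tried on simulated data.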

Additional observations from a re-analysis of the deposited data

How the results depend on the processing

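With DESeq2's size factors, upper-quartile scaling, TMM without the ribosomal protein genes, other filters, limma-voom, legacy=TRUE and the GC correction, edgeR or voom called 0 of the tested ribosomal protein genes, and all-gene counts stayed within 1.5 times of 10 higher and 6 lower. DESeq2's Wald test called 21 genes higher, 1 of them a ribosomal protein gene. Leaving out each library in turn gave 11 to 301 genes higher and 7 to 252 lower, and 0 to 2 ribosomal protein genes higher and 0 to 7 lower, with the extremes without WT 2. The replicate block, fitted on numbers whose titles share a code of unstated meaning, called 81 higher and 31 lower, with Rpl23a and Rpl28 (2 higher) among them. With GC correction and replicate block these were 25 and 16, with 1 ribosomal protein gene higher, and with copies summed and the block 79 and 29, with 1 higher. Same-numbered libraries deviated together with a correlation of 0.108 over all tested genes and 0.259 over the ribosomal protein genes. The median change ranged from -0.11 (without WT 2) to 0.18 (without WT 1). The difference in share became -0.0374 points without fractional members, -0.897 without WT 2 (leave-one-out range -0.897 to 1.49) and -1.05 within replicate number 1 of the block. The difference in the small to large subunit ratio (-0.0373) became 0.000863 without fractional members. Of 65 named genes, 37 without a call changed sign in at least 1 of 18 settings, and 19 of 1169 values passed a threshold not passed in the fit of all 4 libraries. Summing copies, chosen after seeing the data, took Rpl23a from 0.97 to 0.17. The causes of these changes were not tested.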
